A study of Rattus norvegicus with 36 samples.

Results

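The NRF2 pathway genes described here were 9 genes of redox and glutathione metabolism, measured in the livers of rats given a brominated flame retardant. They were taken by name: all probe sets whose platform annotation gave the symbol Nqo1, Gsr, Gclc, Gclm, Txnrd1, Srxn1, Pgd, Nfe2l2 or Keap1. All 9 genes were found among the 14217 genes that had at least 1 probe set assigned to them alone. They had 14 such probe sets: 5 genes had 1, Gclc, Txnrd1 and Keap1 had 2 each, and Srxn1 had 3. Another 4 probe sets that Pgd shares with other genes were left out, since their signal cannot be given to Pgd.

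The animals were male Harlan Sprague Dawley rats, aged 7 weeks at the start, which were gavaged daily for 5 days with PBDE47 (2,2',4,4'-tetrabromodiphenyl ether) dissolved in corn oil, at 5 ml per kg body weight. The vehicle group received corn oil alone, and 5 groups received the compound at doses rising 10-fold from 0.0485 mg/kg through 0.485, 4.85 and 48.5 to 485 mg/kg. Each of the 6 groups had 6 animals, and the corn oil and the gavage were common to all. RNA came from the left lobe of the liver at necropsy, a day after the last dose, so every value describes a single time point in whole tissue. Each liver was hybridised to an Affymetrix 3' expression array, 1 array per animal, giving 36 arrays.

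NRF2, the protein of Nfe2l2, is a transcription factor that pairs with small MAF proteins on a DNA element called the antioxidant response element. In unstressed cells KEAP1 holds NRF2 and hands it to a CUL3 and RBX1 ubiquitin ligase, so NRF2 is regulated largely as a protein rather than through its own mRNA. Electrophiles and oxidants modify cysteines of KEAP1, NRF2 then escapes degradation, and genes for glutathione synthesis, the thioredoxin system, NADPH supply and quinone reduction are transcribed. In liver this programme stands beside the xenobiotic receptors AhR, CAR and PXR, and Nqo1 is also known as a target of AhR. NRF2 protein, KEAP1 modification and glutathione were not measured here, and the arrays report mRNA only.

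The start regions of 8 of the 9 genes, with 9 start sites, were matched by gene identifier in RefSeq for the rat build GRCr8, and Gsr had no entry. Windows from 250 bases before to 50 bases after each start were searched on both strands for the core of the antioxidant response element, written as TGACNNNGC or TGAGNNNGC. At least 1 of these was present in 4 of the 9 member windows (44.4%) and in 27.1% of all 33469 windows of that length (12.1% for TGACNNNGC and 17.2% for TGAGNNNGC). The 3 windows with a match before the start are shown because these genes stand for the glutathione and thioredoxin arms of the results. Each runs 5′ to 3′ on the gene's strand, from 200 bases before the start to 4 after it, with the matching letters in capitals (on either strand). The Gclm window is chr2:213031935-213032138 on the plus strand, that of the second Txnrd1 start is chr7:22755901-22756104 on the minus strand, and that of Srxn1 is chr3:161064612-161064815 on the plus strand.
Gclm: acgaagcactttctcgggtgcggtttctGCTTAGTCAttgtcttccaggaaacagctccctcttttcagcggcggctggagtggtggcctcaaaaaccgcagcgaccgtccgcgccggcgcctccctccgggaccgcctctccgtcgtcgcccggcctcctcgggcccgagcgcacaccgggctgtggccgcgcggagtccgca
Txnrd1: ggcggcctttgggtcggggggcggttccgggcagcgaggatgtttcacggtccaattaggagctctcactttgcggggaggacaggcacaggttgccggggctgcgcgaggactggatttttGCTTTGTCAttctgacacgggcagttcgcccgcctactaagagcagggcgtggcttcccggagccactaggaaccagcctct
Srxn1: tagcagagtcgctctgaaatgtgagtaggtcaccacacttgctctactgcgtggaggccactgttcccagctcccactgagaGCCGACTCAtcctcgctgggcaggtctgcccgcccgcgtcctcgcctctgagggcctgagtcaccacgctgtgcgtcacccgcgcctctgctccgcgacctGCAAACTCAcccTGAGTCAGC
The Gclm match GCTTAGTCA begins 172 bases before the start and is the TGACNNNGC form read on the other strand. In Txnrd1 the match GCTTTGTCA begins 78 bases before the second start, whereas the first listed start has none. Srxn1 has 3 matches, all of the TGAGNNNGC form, beginning 118, 17 and 5 bases before the start. The fourth window with a match is that of Nfe2l2, whose TGACNNNGC begins 38 bases after the start. No match was found in the windows of Nqo1, Gclc, Pgd and Keap1, which says only that these letters are not within this distance. The 5-letter core GCGTG, to which the AhR complex binds, was in 5 of the 9 member windows (55.6%) and in 29.7% of all windows. In Nqo1 it begins 10 bases before the start, on the other strand. These matches are descriptions of sequence, and binding was not measured.

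The array medians lay between 5.31 and 5.38 (log2), and the mean correlation of an array with the others of its group ran from 0.991 to 0.995. No arrays held identical values. An array has no sequencing depth, so the number of arrays limits the precision. All tests were fitted across 31042 probe sets, and a gene was called where its adjusted p was below 0.05. Replicate numbers did not pair the animals across doses. The lists of marker genes for hepatocytes and other liver cells were read on the same arrays. Hepatocyte markers were present throughout, with the sum of 8 genes between 17.2 and 17.3 (log2) in every vehicle array.

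Across the dose range, the number of the 9 genes called higher went from 0 at the 3 lower doses to 3 at 48.5 mg/kg and 8 at 485 mg/kg, and Nfe2l2 was called at no dose. Genes are counted here and below on their brightest probe set, whereas the shares cover all 31042 probe sets, dim and unnamed ones included. At 48.5 mg/kg 3 of the 9 genes were called higher (Nqo1, Gsr and Srxn1), beside 2.57% of all probe sets called higher. The dimmer probe sets of Gclc and Keap1 were called at this dose as well, and both genes were called with the mean of their probe sets or among brighter probe sets only, which gives 5 members. At 485 mg/kg 8 of 9 were called higher, beside 7.81% of all probe sets called higher and 7.22% called lower, and no member was called lower in any comparison. The 9 genes were chosen with earlier results of these data known, so setting their counts beside these shares is descriptive. The median log2 change of the 9 genes was 0.24 at 48.5 mg/kg and 0.81 at 485 mg/kg, while the median of all probe sets was -0.01 at both doses. Tested against a minimum change of 1.5-fold rather than 0, 1 member was called at 48.5 mg/kg (Nqo1) and 3 at 485 mg/kg (Nqo1, Gsr and Srxn1). At the 3 lower doses none of the 9 genes was called. Of all probe sets, 0% were called higher at 0.0485 and at 0.485 mg/kg, and 0.0193% at 4.85 mg/kg. At an unadjusted p below 0.05 limma found 1, 1 and 2 of the 9 genes at these doses, beside 1519, 1381 and 2006 of the 31042 probe sets. In bulk tissue, fewer cells of a type and less RNA per cell cannot be told apart.

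**Figure D1:**
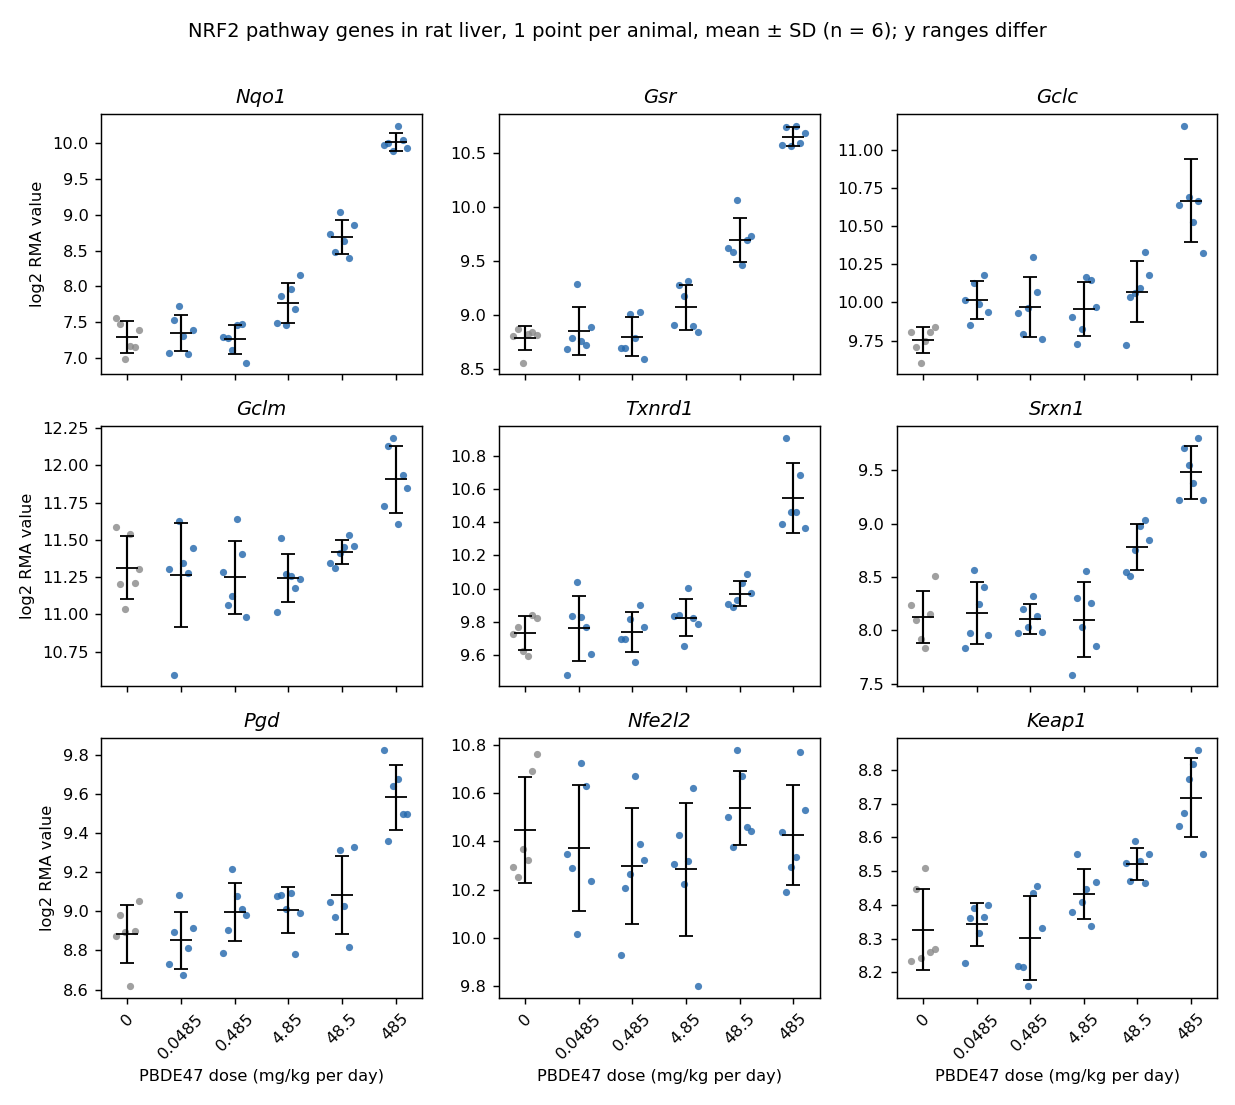
Level of each of the 9 genes (log2 RMA value, representative probe set, y axis) by PBDE47 dose in mg/kg per day (x axis, 0 is vehicle), with 1 point per animal and bars for the mean ± SD (n = 6). The y ranges differ between panels; Nqo1 and Gsr stand clear of vehicle at 48.5 and 485 mg/kg, while the Nfe2l2 groups overlap throughout.

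Nqo1, the NAD(P)H quinone oxidoreductase that reduces quinones by transferring electron pairs, had the largest change of the 9 genes. Its log2 level (probe set 1387599_a_at) in vehicle livers ran from 6.99 to 7.56 with a median of 7.28. With 0.0485 mg/kg it ran from 7.06 to 7.72 (median 7.35) and at 0.485 mg/kg from 6.94 to 7.48 (median 7.29), so these groups overlapped vehicle almost completely. At 4.85 mg/kg it ran from 7.46 to 8.16 (median 7.77), and 4 of 6 animals lay above every vehicle animal. The log2 change there was 0.48 ± 0.12 (SE, n = 6 per group), which did not pass the test (limma adjusted p = 0.29). All 6 animals at 48.5 mg/kg, from 8.40 to 9.05 (median 8.69), lay above the vehicle and 4.85 mg/kg ranges. The highest dose gave a level of 9.89 to 10.24 (median 9.995), again above every animal of the dose below. The rise over vehicle was 2.64-fold at 48.5 mg/kg (log2 1.40 ± 0.12, limma adjusted p = 7.8e-10) and 6.62-fold at 485 mg/kg (log2 2.73 ± 0.12, adjusted p = 1.76e-18). Among all 31042 probe sets Nqo1 ranked 7 by p at 485 mg/kg and 12 at 48.5 mg/kg.

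Gsr, glutathione reductase, regenerates reduced glutathione from its oxidised form with NADPH. Its log2 level (1369061_at) ran from 8.56 to 8.87 in vehicle livers (median 8.82), and 5 of the 6 animals lay within 8.80 to 8.87. At 4.85 mg/kg it ran from 8.84 to 9.32 (median 9.04), with 5 of 6 animals above the vehicle range and a log2 change of 0.28 ± 0.10 that did not pass the test (adjusted p = 0.567). The range at 48.5 mg/kg was 9.46 to 10.07 (median 9.66) and at 485 mg/kg 10.56 to 10.75 (median 10.64). Both groups lay wholly above the group before them. Gsr was 1.88-fold higher than vehicle at 48.5 mg/kg (log2 0.91 ± 0.10, adjusted p = 8.5e-08) and 3.65-fold higher at 485 mg/kg (log2 1.87 ± 0.10, adjusted p = 1.43e-16).

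Gclc and Gclm encode the catalytic and the modifier subunit of glutamate-cysteine ligase, the enzyme that makes the first and rate-limiting step of glutathione synthesis. The log2 level of Gclc (1372523_at) in vehicle livers ran from 9.61 to 9.84 (median 9.78), and at 485 mg/kg from 10.33 to 11.15 (median 10.65), so the groups did not overlap. It was 1.89-fold higher at 485 mg/kg (log2 0.91 ± 0.10, adjusted p = 1.79e-08). Animal 2 of the 485 mg/kg group was the highest of all, and the spread at this dose (SD 0.27) was wider than in vehicle (SD 0.085).

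At the lower doses Gclc stood above vehicle without passing the test. All 6 animals at 0.0485 mg/kg, from 9.85 to 10.18 (median 10.003), lay above the vehicle range, which ended at 9.84. The log2 changes at 0.0485, 0.485, 4.85 and 48.5 mg/kg were 0.26, 0.22, 0.21 and 0.32, each ± 0.10, and these values lay within about 1 SE of each other. None was called: the unadjusted p at 0.0485 mg/kg was 0.0148 in limma and the adjusted p was 1, and at 48.5 mg/kg the adjusted p was 0.0832. The second Gclc probe set, 1370688_at, gave 0.26 at 0.0485 mg/kg with 5 of 6 animals above the vehicle range, and 0.97 at 485 mg/kg. This probe set was called at 48.5 mg/kg (log2 0.36 ± 0.10, adjusted p = 0.0297), so the 2 probe sets of Gclc fell on either side of the threshold at that dose. Leaving out animal 1 of the 48.5 mg/kg group, the lowest Gclc level of that group, brought the first probe set to 0.39 (adjusted p = 0.0265).

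The log2 level of Gclm (1370030_at) ran from 11.03 to 11.59 in vehicle livers (median 11.26), a wider range than that of Gclc. Its medians at the next 4 doses were 11.32, 11.20, 11.25 and 11.43, and every one of these groups overlapped vehicle. Only at 485 mg/kg, from 11.61 to 12.18 (median 11.89), did all 6 animals lie above the vehicle range. The rise was 1.51-fold (log2 0.59 ± 0.12, adjusted p = 0.000675). The difference between the changes of the 2 subunits, Gclc minus Gclm, was 0.21 at 48.5 mg/kg (exact permutation test, two-sided, p = 0.0541, adjusted p = 0.0541) and 0.32 at 485 mg/kg (exact p = 0.0303, adjusted p = 0.0321). The smallest p that 6 against 6 animals allow is 0.00216. The larger change of Gclc at 485 mg/kg lost its call when any of 6 single animals was left out (vehicle 1 or 4, or 485 mg/kg animal 1, 2, 4 or 5), with differences of 0.27 to 0.38 over all single omissions and adjusted p up to 0.0649. The difference at 48.5 mg/kg gained a call without vehicle animal 3 (0.24, adjusted p = 0.0498), without vehicle animal 5 (0.24, adjusted p = 0.0433) or without 48.5 mg/kg animal 1 (0.27, adjusted p = 0.00687), and also with the mean of each gene's probe sets (0.23, adjusted p = 0.0368). Over its alternatives the adjusted p at 48.5 mg/kg ran from 0.00687 to 0.11.

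Txnrd1, the cytosolic thioredoxin reductase, is a selenoenzyme that keeps thioredoxin reduced with NADPH. Its log2 level (1398791_at) ran from 9.60 to 9.84 in vehicle livers (median 9.75) and from 10.37 to 10.91 at 485 mg/kg (median 10.46), with no overlap. It was 1.75-fold higher at 485 mg/kg (log2 0.81 ± 0.08, adjusted p = 1.77e-09), and its second probe set 1386958_at gave 0.87 ± 0.09. All 6 animals given 48.5 mg/kg, from 9.89 to 10.09 (median 9.95), also lay above the vehicle range. The change there was 0.24 ± 0.08 on the log2 scale and was not called (adjusted p = 0.111).

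Srxn1, sulfiredoxin, reactivates peroxiredoxins whose cysteine has been overoxidised. Its brightest probe set, 1372510_at, ran from 7.83 to 8.51 (log2) in vehicle livers (median 8.13). At 4.85 mg/kg it ran from 7.59 to 8.56 (median 8.14), the widest of its 6 groups, with a log2 change of -0.02 ± 0.14 that was not called. At 48.5 mg/kg it ran from 8.51 to 9.03 (median 8.80), and its lowest animal, at 8.511, lay just above the highest vehicle animal, at 8.507. At 485 mg/kg it ran from 9.22 to 9.80 (median 9.46). Srxn1 was 1.58-fold higher at 48.5 mg/kg (log2 0.66 ± 0.14, adjusted p = 0.00409) and 2.56-fold higher at 485 mg/kg (1.36 ± 0.14, adjusted p = 2.32e-09). The second probe set, 1384331_at, gave 0.63 and 1.27 at these doses, both called. The third, 1381067_at, stood at about 3.42 in vehicle, below the array median, and gave -0.08 ± 0.07 at 485 mg/kg (adjusted p = 0.502). The 3 probe sets of Srxn1 therefore disagree, and only the dimmest showed no called change.

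Pgd, 6-phosphogluconate dehydrogenase, makes NADPH in the oxidative pentose phosphate pathway. Its log2 level (1371646_at) ran from 8.62 to 9.05 in vehicle livers (median 8.90), from 8.82 to 9.33 at 48.5 mg/kg (median 9.04) and from 9.36 to 9.82 at 485 mg/kg (median 9.57). The first 2 of these groups overlapped and the third lay above both. The rise at 485 mg/kg was 1.62-fold (log2 0.70 ± 0.09, adjusted p = 2.02e-07), while the log2 change of 0.20 ± 0.09 at 48.5 mg/kg was not called (adjusted p = 0.255).

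Of the 2 genes that encode the switch itself, Keap1 was called higher at 485 mg/kg and Nfe2l2 at no dose, and the difference between them was not tested. Nfe2l2, which encodes NRF2, had a vehicle range of 10.25 to 10.76 (log2, 1367826_at, median 10.35) and a range of 10.19 to 10.77 at 485 mg/kg (median 10.39), so the 2 groups covered the same span. The log2 changes at the 5 doses, in rising order, were -0.07, -0.15, -0.16, 0.09 and -0.02, each ± 0.13, and none was called. At 485 mg/kg the 95% interval of the change was -0.28 to 0.23 (adjusted p = 0.947), an interval that covers changes of that size in either direction. Keap1, the adaptor that holds NRF2, ran from 8.23 to 8.51 in vehicle livers (log2, 1370066_at, median 8.26) and from 8.55 to 8.86 at 485 mg/kg (median 8.72). It was 1.31-fold higher at 485 mg/kg (log2 0.39 ± 0.06, adjusted p = 5.6e-06), the smallest of the 8 called rises, and its second probe set 1387810_at gave 0.43.

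The 2 Keap1 probe sets differed in their call at 48.5 mg/kg. The brighter gave a log2 change of 0.20 ± 0.06 (adjusted p = 0.0602) with 4 of 6 animals above the vehicle range, and 1387810_at gave 0.29 ± 0.08 (adjusted p = 0.0341). The mean of both probe sets was called (0.24, adjusted p = 0.00996). The brighter probe set alone was called without vehicle animal 2 (0.22, adjusted p = 0.0452) or vehicle animal 4 (0.23, adjusted p = 0.0225). Those 2 animals had the higher Keap1 levels of the vehicle group.

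**Figure D2:**
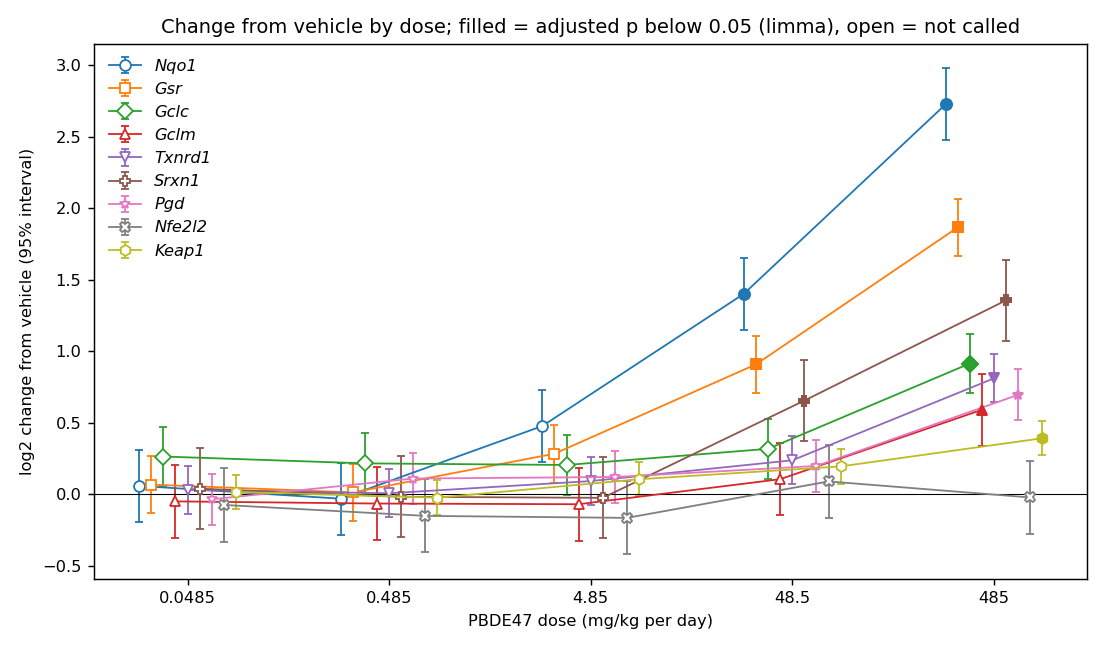
Log2 change from vehicle (y axis, with its 95% interval from the limma fit, n = 6 per group) of each gene by PBDE47 dose (x axis, mg/kg per day, doses spaced evenly on a log scale and points offset sideways). Filled symbols passed an adjusted p of 0.05: Nqo1, Gsr and Srxn1 at 48.5 mg/kg, and all but Nfe2l2 at 485 mg/kg.

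Each dose comparison above shares the vehicle animals, so the steps between neighbouring doses were tested as well. From 4.85 to 48.5 mg/kg Nqo1 rose 1.90-fold (log2 0.93 ± 0.12, adjusted p = 1.74e-05), Gsr 1.54-fold (0.63 ± 0.10, adjusted p = 0.000343) and Srxn1 1.60-fold (0.68 ± 0.14, adjusted p = 0.00771). No other member was called, and 0.886% of all probe sets were called higher in this step. From 48.5 to 485 mg/kg 8 of the 9 genes were called higher, beside 2.55% of all probe sets. In this step the log2 changes were 1.32 for Nqo1, 0.96 for Gsr, 0.70 for Srxn1, 0.60 for Gclc, 0.57 for Txnrd1, 0.50 for Pgd, 0.49 for Gclm and 0.20 for Keap1. Srxn1 thus had steps of similar size across both intervals, with 0.68 and then 0.70, each ± 0.14. Nfe2l2 gave -0.11 ± 0.13 (adjusted p = 0.76).

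Among these upper steps, 2 calls were lost in some omissions of a single animal. Keap1 had an adjusted p of 0.0456 and lost the call when any of 9 of the 12 animals was left out: 48.5 mg/kg animal 1 (log2 0.197, adjusted p = 0.0676), 2 (0.187, 0.0978), 4 (0.199, 0.0691), 5 (0.186, 0.0967) or 6 (0.203, 0.062), or 485 mg/kg animal 2 (0.206, 0.0581), 3 (0.186, 0.105), 4 (0.177, 0.104) or 5 (0.169, 0.117). The Gclm step (adjusted p = 0.0147) was not called without 485 mg/kg animal 3 (log2 0.43, adjusted p = 0.0557). These adjusted p values are from limma.

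The size of the Nqo1 change was set against that of every other member in the same animals, by the log2 difference between the 2 probe sets in each animal. Nqo1 had the larger change in all 16 such comparisons at 48.5 and 485 mg/kg (exact permutation test, two-sided, adjusted p from 0.00278 to 0.00487 over 18 tests including Gclc against Gclm). Nqo1 had the largest change of the members in these same arrays, so taking it fixed the direction of all 16. The p values set the size of each difference beside the spread among animals, for these probe sets only. The nearest member was Gsr, which Nqo1 exceeded by 0.49 at 48.5 mg/kg and by 0.86 at 485 mg/kg. Its lead over Srxn1 was 0.75 and 1.37, and its lead over Keap1 was 1.21 and 2.33. All 6 animals at 485 mg/kg lay above all 6 vehicle animals in each of these differences. At 48.5 mg/kg 5 of 6 did so against Gsr and against Srxn1, and 6 of 6 against the other 6 members.

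Beyond the dose, 3 of 36 pairs of members varied together among animals of the same group by the test used. Deviations from the group mean were correlated over the 36 animals for all 36 pairs of members, with permutation within groups and adjustment over the 36 pairs. Txnrd1 and Srxn1 had r = 0.62 and rho = 0.62 (permutation test, adjusted p = 0.00648 and 0.00558), and r was 0.59 without the 2 animals farthest out in Txnrd1. Gclc and Srxn1 had r = 0.56 and rho = 0.61 (adjusted p = 0.00648 and 0.00558), with r = 0.55 without the 2 farthest in Gclc. The 2 subunits Gclc and Gclm had r = 0.48 and rho = 0.53 (adjusted p = 0.0313 and 0.0234), with r = 0.46 without the 2 farthest in Gclc. Nqo1 and Gsr, whose dose patterns were most alike among the members, had r = 0.50 and rho = 0.45 (adjusted p = 0.0504 and 0.072) and missed the threshold. Gsr and Pgd had r = 0.46 (adjusted p = 0.0504) and rho = 0.48 (adjusted p = 0.043). No pair that included Nfe2l2 passed, and its r ranged up to 0.33, with Srxn1 (adjusted p = 0.219).

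**Figure D3:**
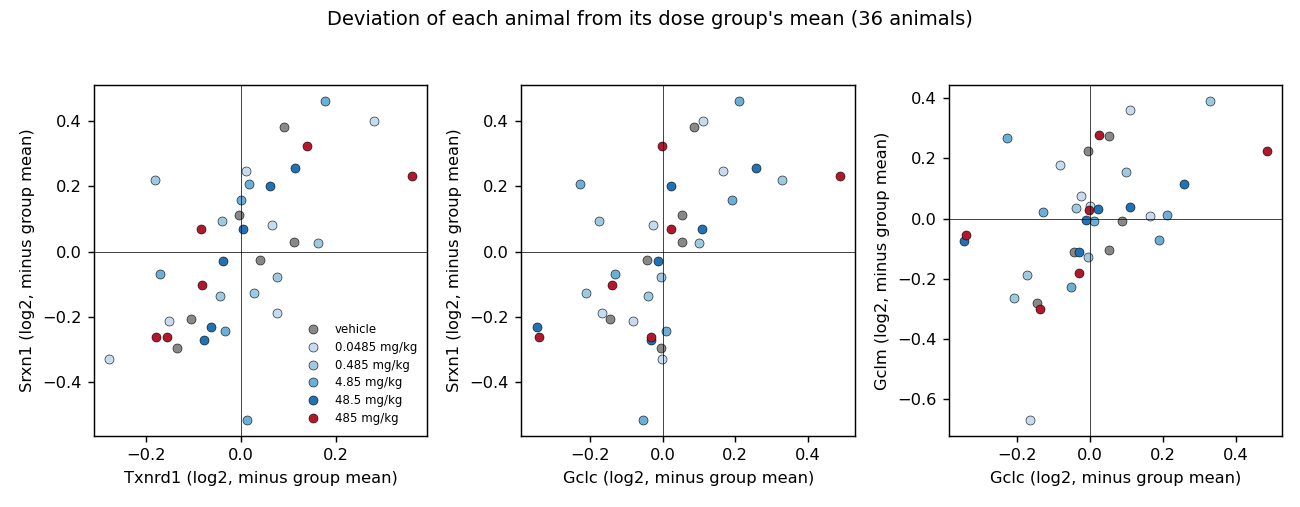
Deviation of each of the 36 animals from its dose group's mean (log2) for the 3 pairs of genes that passed the permutation test, with the first gene on the x axis, the second on the y axis and points coloured by dose. Txnrd1 with Srxn1 (r = 0.62), Gclc with Srxn1 (r = 0.56) and Gclc with Gclm (r = 0.48) slope upward over the 36 animals together. No r was computed within single dose groups.

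Some animals were at the edge of their group for several members at once. Vehicle animal 3 had the lowest value of its group in 4 of the 9 genes (Nqo1, Gsr, Gclc and Gclm), and animal 3 of the 0.0485 mg/kg group had the highest in 6 of 9. Vehicle animal 6 was highest in 4. Animal 4 of the 4.85 mg/kg group was highest in 5. Animals 4 and 5 at 0.485 mg/kg and animals 3 and 5 at 48.5 mg/kg were highest in 4 each. Lowest in 4 were also animal 1 at 0.0485 mg/kg, animal 6 at 0.485 mg/kg and animal 2 at 48.5 mg/kg. The 3'-minus-5' differences of actin and Gapdh, a measure of RNA integrity, were 1.04 and -0.25 in animal 3 of the 0.0485 mg/kg group. They were 1.13 and -0.14 in vehicle animal 6, and in both animals each was the lowest of its group. Vehicle animal 3, at 1.26 and -0.04, lay inside the range of its group. The values were 1.12 and -0.14 in animal 4 at 4.85 mg/kg, and 1.23 and -0.08 in animal 4 at 0.485 mg/kg. They were 1.16 and -0.15 in animal 5 at 0.485 mg/kg. At 48.5 mg/kg they were 1.09 and -0.16 in animal 3 and 1.33 and -0.03 in animal 5. None of these further animals had the lowest value of its group in both measures. Whether RNA integrity had a part in these edge values or in the covariation within groups was not tested. No count of called members moved by over 1.5 times when any single animal was left out, with 8 called at 485 mg/kg under every omission and 3 or 4 at 48.5 mg/kg.

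The dose pattern of each member, as its 6 group means, was compared with that of all other named genes. These correlations are over 6 points and describe shape only. The nearest to Nqo1 were Lonp2 (a peroxisomal protease, r = 0.99924), Gsr (0.999), Gstt3 (a glutathione transferase, 0.99885), Mal2 (0.99808) and Hibch (0.99795). Over the 36 arrays their r with Nqo1 was 0.87, 0.98, 0.96, 0.79 and 0.94. The nearest to Gsr was Gstt3 (0.99934), to Gclc Rps6kb1 (0.99806), to Gclm Fndc5 (0.99984), to Txnrd1 Epas1 (0.99897), to Srxn1 the proteasome subunit Psmd12 (0.99824), to Pgd Iscu (0.99899) and to Keap1 Cysrt1 (0.99754). Nfe2l2 had the least close neighbour, Nup42 (0.99157, and 0.24 over the 36 arrays). Each neighbour was taken as the highest of 14217 genes. Between the members, r over the group means was 0.90 or above for every pair without Nfe2l2 and between 0.17 and 0.51 for the pairs with it.

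Other genes of the same chemistry were read from lists that do not include the 9. These lists were also chosen with earlier results of these data known, so their counts beside the shares of all probe sets are descriptive. Of 11 other NRF2 regulators, 4 were called higher at 485 mg/kg and 0 lower, beside 7.81% and 7.22% of all probe sets. At 48.5 mg/kg 2.57% of all probe sets were called higher. Maff, a small MAF protein, had the largest rise (log2 1.24 ± 0.23, adjusted p = 9.92e-05, 5 of 6 animals above the vehicle range). Its vehicle level of 3.78 lies below the array median. Nfe2l1, the related factor NRF1, rose by 0.46 ± 0.06 (adjusted p = 1.75e-06), Sqstm1 (p62, which binds KEAP1) by 0.41 ± 0.07 (adjusted p = 3.39e-05) and the ligase subunit Rbx1 by 0.41 ± 0.05 (adjusted p = 2.15e-08). Rbx1 was the only 1 of the 11 called at 48.5 mg/kg (0.16 ± 0.05, adjusted p = 0.0472). Values at 485 mg/kg for Cul3, Bach1 and Mafg were -0.08, -0.06 and -0.05, none called.

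Of 14 glutathione genes beyond the 9, 2 were called higher and 2 lower at 485 mg/kg, beside 7.81% and 7.22% of all probe sets, and 10 were not called. The list's median was 0.07, and none was called at 48.5 mg/kg. Glutathione synthetase Gss was higher by 0.33 ± 0.08 (log2, adjusted p = 0.00423) and the peroxidase Gpx2 by 0.73 ± 0.15 (adjusted p = 0.000341, 4 of 6 animals above vehicle, from a dim 4.12). Cth, which makes cysteine from cystathionine, fell by 0.70 (SE 0.11, adjusted p = 1.07e-05), and Chac2, which degrades glutathione, fell by 0.42 (SE 0.09, adjusted p = 0.000833). The cystine transporter Slc7a11 gave 0.41 ± 0.26 and was not called (adjusted p = 0.33).

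In the thioredoxin and peroxiredoxin list 5 of 10 genes were called higher and 2 lower at 485 mg/kg (median 0.17), and 1 higher at 48.5 mg/kg. The matching shares of all probe sets were 7.81%, 7.22% and 2.57%. Prdx3, the mitochondrial peroxiredoxin, rose by 0.63 ± 0.05 (adjusted p = 3.03e-12) and was the gene called at 48.5 mg/kg (0.17, adjusted p = 0.0433). Prdx6 rose by 0.54 ± 0.09 and thioredoxin Txn1 by 0.41 ± 0.04. Txnip, the thioredoxin inhibitor, fell by 0.61 (SE 0.09, adjusted p = 4.96e-06).

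Of 9 other genes of NADPH supply 4 were called higher at 485 mg/kg and 0 lower, beside 7.81% and 7.22% of all probe sets, although the list's median was 0.05. Malic enzyme Me1 rose 3.12-fold (log2 1.64 ± 0.12, adjusted p = 3.23e-13) and transketolase Tkt 2.34-fold (1.23 ± 0.07, adjusted p = 1.29e-15), both larger than the change of Pgd, and both were called at 48.5 mg/kg (0.76 and 0.42). Idh1 and Taldo1 rose by 0.26 and 0.23. The other 5 ranged from -0.17 for Rpia to 0.05 for Rpe, none called.

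The list of other NRF2-linked genes for detoxication and iron had 13 of 18 called higher at the top dose, 9 at 48.5 and 1 at 4.85 mg/kg, with 0 lower, and medians of 0.82, 0.32 and 0.14. Of all probe sets, 7.81%, 2.57% and 0.0193% were called higher at these doses. Many of its genes are also targets of CAR or PXR. It was led by the transporter Abcc3 (log2 4.55 ± 0.15, adjusted p = 4.98e-23) and the glutathione transferase Gsta3 (3.79 ± 0.17, adjusted p = 1.18e-18), followed by the aldehyde reductase Akr7a3 (1.68 ± 0.16) and Gsta4 (1.42 ± 0.08). The 1 gene called at 4.85 mg/kg was Abcc3. Of the comparison list, 3 of 8 antioxidant enzymes not classed as NRF2 targets were higher at 485 mg/kg (Sod2 0.78 ± 0.05, Msra 0.50 ± 0.11 and Sod1 0.16 ± 0.04), with a median of 0.01. At 48.5 mg/kg 2 of these 8 were called higher, Msra (0.49, adjusted p = 0.0101) and Sod2 (0.20, adjusted p = 0.0345). Catalase (Cat) gave -0.03 ± 0.07 and was not called.

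**Figure D4:**
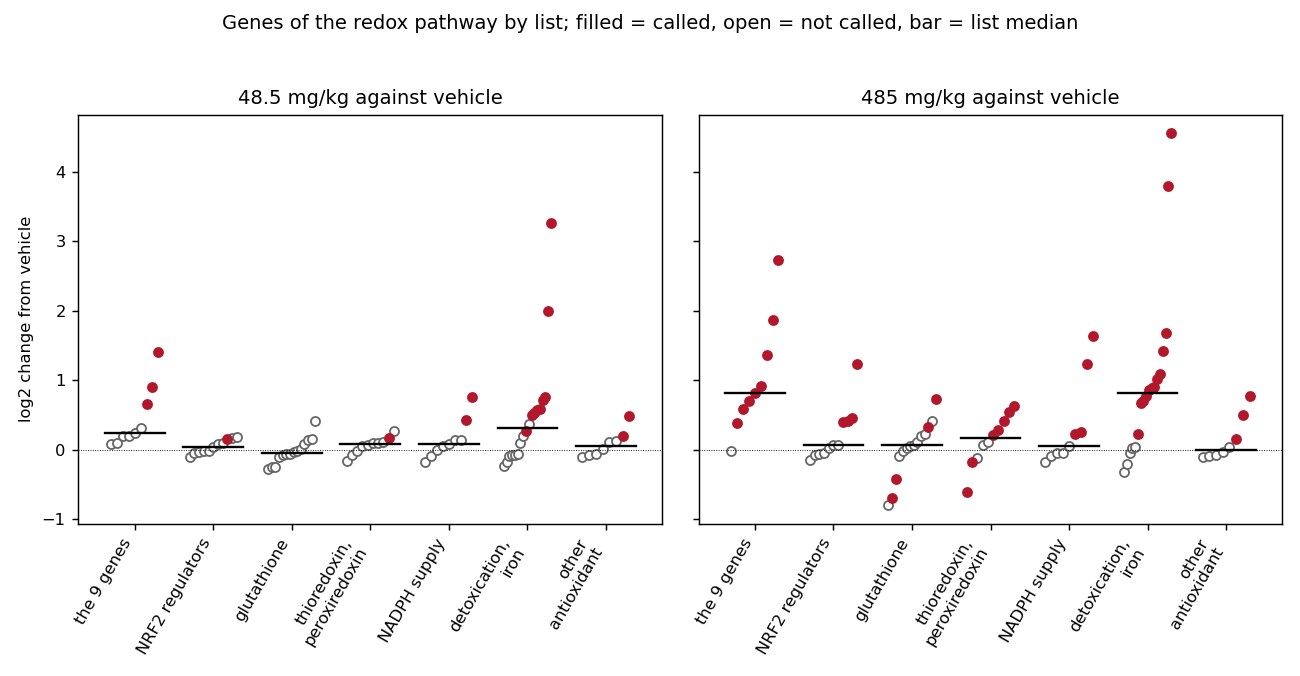
Log2 change from vehicle (y axis) of each gene by list (x axis) at 48.5 mg/kg (left) and 485 mg/kg (right), with filled points called at an adjusted p of 0.05, open points not called and bars at the list median. At 485 mg/kg the medians of the 9 genes (0.81) and of the detoxication and iron list (0.82) lie above those of the other lists, which run from 0.01 to 0.17.

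Because Nqo1 is also an AhR target, 6 genes of that receptor were read beside it. Cyp1a1, the marker gene of AhR, rose by 2.61 ± 0.26 at 48.5 mg/kg and by 6.03 ± 0.26 at 485 mg/kg (log2, adjusted p = 1.15e-08 and 3.53e-19), and Ahr itself by 0.74 and 0.76. The vehicle level of Cyp1a1, 4.82, lies below the array median, as does that of Abcc3 above, 5.27, so whether these probe sets stood above background in vehicle is not known. Cyp1a2 was called only at 485 mg/kg (0.30 ± 0.08), and Cyp1b1, Tiparp and Ahrr were called at neither dose. Cyp1a1 and Nqo1 rose at the same 2 doses, and what NRF2, AhR and other receptors each contribute to Nqo1 was not tested.

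Markers of other cell types and of RNA quality were read on the same arrays, and their part in the changes above was not tested. The counts below are at 485 mg/kg, where 7.81% of all probe sets were called higher and 7.22% lower. Hepatocyte markers had 5 of 8 lower at 485 mg/kg (Apoa1, Ttr, Serpina1, Fgb and Ahsg, by 0.11 to 0.31 on the log2 scale), and their summed level was 17.08 to 17.13 against 17.23 to 17.27 in vehicle. Of 4 cholangiocyte markers Epcam was higher (0.60 ± 0.10), and the sum was 9.76 to 10.03 against 9.21 to 9.47, while Krt19, Krt7 and Cftr gave -0.14, -0.12 and -0.02. Kupffer cell and macrophage markers had 1 of 6 higher (Cd14) and 3 lower, with sums of 11.39 to 12.05 against 11.59 to 12.13 in vehicle. Endothelial, T and NK cell and erythroid markers had 2 of 5, 2 of 7 and 3 of 3 lower and none higher, and none of 7 stellate or 3 neutrophil markers was called. The sums in vehicle and at 485 mg/kg were 11.27 to 11.56 and 11.14 to 11.30 for endothelial, 8.03 to 8.37 and 7.64 to 7.99 for T and NK cell, and 12.62 to 13.20 and 11.74 to 12.56 for erythroid markers. The 3'-minus-5' difference of the actin probe sets, a measure of RNA integrity, averaged between 1.15 and 1.26 in the 6 groups, and that of Gapdh between -0.14 and -0.05. Vehicle had the highest mean of both, 1.26 and -0.05, beside 1.19 and -0.10 at 485 mg/kg. Single animals of these 2 groups overlapped. For actin they ran from 1.13 to 1.46 and from 1.06 to 1.33, and for Gapdh from -0.14 to 0.01 and from -0.13 to -0.04.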

How the data were processed

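Liver RNA of 36 rats was measured on 36 arrays, 6 per dose group. The authors deposited log2 values for each probe set and array, made with RMA and the R package affy per the submitters' processing notes, whose versions are not given in the sources used here. RMA corrects background, normalizes between arrays and summarizes probes, which ties each value to the whole set of arrays. The authors' own comparison used R/maanova, per the series design.

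Here limma (3.58.1, R 4.3.3) fitted 6 group means to all 36 arrays, with Benjamini-Hochberg adjustment over 31042 probe sets, without the 57 controls, and 0.05 as the threshold. Standard errors, intervals and p values come from this fit after limma moderated each probe set's variance towards that of all probe sets. The fit had 30 residual and 5.26 prior degrees of freedom. Of the probe sets tested, 20826 were named by 1 gene, 436 by several and 9780 by none in the platform annotation. A gene is represented by the brightest probe set that names no other gene. Named beyond the 9 genes are, per list, up to 4 called genes with the largest change at 485 mg/kg and up to 2 at 48.5 mg/kg, Cyp1a1, and the nearest dose patterns (5 for Nqo1, 1 for others); further genes named with values were chosen after their values were seen. Differences between genes used exact permutation, and covariation used 100000 permutations within groups. Of the procedures, only the limma fit was tested on simulated data. The genes and lists were chosen with earlier results of these data known. Same-numbered animals did not deviate together: 19 of 90 such pairs had r over 0.1 (median 0.010), so no block was used. The alternatives tried were a replicate block, quantile normalization, median centring, a filter on dim probe sets, the ordinary test, trend and robust settings, array weights, a fit to the compared groups alone, a 1.5-fold minimum change, averaging the probe sets of a gene, and omitting each animal.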

Additional observations from a re-analysis of the deposited data

Results flagged for a closer look

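Of 54 sets of 6 animals (9 genes in 6 groups), 4 held a single animal far from the others of its group by Dixon's test, which by chance marks about 1 in 20 sets. Gsr was at 8.56 (log2) in vehicle animal 3, below the next lowest at 8.80. In the 0.0485 mg/kg group, Gsr was at 9.28 in animal 3, above the next highest at 8.89, and Gclm was at 10.60 in animal 2, below the next lowest at 11.27. Pgd was at 8.78 in animal 5 of the 4.85 mg/kg group, below the next lowest at 8.99. All 4 lay in vehicle or at doses where no member was called, and no cause was tested.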

How the results depend on the processing

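Choices were changed one at a time for the counts of called members and each member's log2 change in 7 comparisons, while the differences between members were recomputed only with quantile normalization, the mean of probe sets and single omissions. Counts stayed within 1.5 times the reported one in 84 of 84 omissions of a single animal and in 64 of 70 other alternatives. The 6 exceptions were these. At 48.5 mg/kg against vehicle 5 members were called when only 15520 brighter probe sets were tested, and 5 with the mean over each gene's probe sets, where Gclc and Keap1 joined the other 3. With a minimum change of 1.5-fold the counts were 1 at 48.5 mg/kg and 3 at 485 mg/kg against vehicle, 0 from 4.85 to 48.5 mg/kg and 1 from 48.5 to 485 mg/kg, which asks more than a difference from 0. With a replicate block (a paired analysis by animal number) the counts were those reported: 3 at 48.5 and 8 at 485 mg/kg, and the block changed no call of any member.

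Signs turned only in changes near 0 that were not called. Quantile normalization gave -0.0084 for Keap1 at 0.0485 mg/kg and -0.012 for Txnrd1 at 0.485 mg/kg. Array weights gave -0.0037 for Txnrd1 at 0.485 mg/kg and 0.0012 for Gclm at 0.0485 mg/kg, and the mean of probe sets gave -0.020 for Txnrd1 and 0.038 for Keap1 at 0.485 mg/kg. Leaving out 1 animal, the log2 change at 0.0485 mg/kg ran from -0.016 to 0.12 for Nqo1, -0.018 to 0.10 for Gsr, -0.12 to 0.084 for Gclm, -0.025 to 0.087 for Txnrd1, -0.041 to 0.12 for Srxn1, -0.089 to 0.00025 for Pgd and -0.0021 to 0.053 for Keap1. At 0.485 mg/kg it ran from -0.091 to 0.034 for Nqo1, -0.033 to 0.055 for Gsr, -0.025 to 0.044 for Txnrd1, -0.076 to 0.059 for Srxn1 and -0.054 to 0.013 for Keap1, at 4.85 mg/kg from -0.12 to 0.078 for Srxn1, and at 485 mg/kg from -0.091 to 0.041 for Nfe2l2.

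The Keap1 step from 48.5 to 485 mg/kg, called at 0.0456 (limma adjusted p), kept its call and direction in 8 of 22 alternatives, and its adjusted p ran from 0.0179 to 1. Keap1 at 48.5 mg/kg was called in 7 of 22, with adjusted p from 0.00996 to 1. The difference between Gclc and Gclm at 48.5 mg/kg gained a call with the mean of probe sets (0.23, adjusted p = 0.0368), its omissions are given in the report, and the differences of Nqo1 from other members kept their calls in these alternatives. The causes were not tested. Median centring moved the median level of all values at 485 mg/kg by 0.0077. After quantile normalization the median change of all probe sets at 485 mg/kg against vehicle was -0.0024, beside -0.0116 as reported. The 6 animals per group limit the precision throughout.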
